A study of Mus musculus with 2 samples.

Results

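The genes described here load and start the replicative helicase: Mcm2, Mcm3, Mcm4, Mcm5, Mcm6 and Mcm7, which encode the MCM hexamer, together with Mcm10, Cdc6, Cdt1 and E2f1. They were taken as every probe set on the array whose platform annotation names 1 gene and that gene is on this list of 10. This gave 29 probe sets for the 10 genes, of 34945 single-gene probe sets for 18193 genes on the array. The list was chosen by function, but with the log2 differences of these same arrays in view, among them the higher signals of E2f1 and Mcm2 in the null library, so those values describe the choice and are no independent evidence. Gene expression was measured on 1 Affymetrix array of a Sox11(-/-) embryo and 1 array of a Sox11(+/+) littermate, both at E17.5, late in embryonic development, from a cross of Sox11(+/-) parents on a mixed C57BL/6 and 129 background. The tissue is labelled embryonic cortex, no conditional allele or Cre driver is named, and each embryo was genotyped from a tail clip. Each genotype is 1 embryo and 1 array, so no value below has a replicate error, no test was run, and a difference is one between these 2 libraries. The number of arrays limits the precision.

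Before a cell enters S phase, Cdc6 and Cdt1 help the origin recognition complex place MCM hexamers on replication origins, a step called licensing. In S phase the hexamer joins Cdc45 and the GINS complex to become the moving helicase, and Mcm10 takes part in its activation. E2F1 is the founding member of the E2F transcription factors, which drive many of these genes as cells leave G1, and licensing genes are therefore widely used as marks of dividing cells. In the embryonic cortex the dividing cells are the radial glia of the ventricular zone and the intermediate progenitors derived from them, whereas neurons have left the cycle.

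Promoter sequence is shown because exact letters of the E2F motif, which factors of the E2f1 family recognise, are present in the windows of some members and absent from others. The sequences come from the RefSeq promoter windows of GRCm38.p6, each with 250 bases before and 50 after the gene's start. Both strands were searched for the letters TTTCGCGC and TTTGGCGC, and matches are in capitals, also where matches overlap. Other forms of the motif were not searched. The upstream 250 bases are given 5′ to 3′ on the gene's own strand for Mcm5 at chr8:75109259-75109508 (plus strand), Mcm6 at chr1:128359706-128359955 (minus strand) and Mcm2 at chr6:88898781-88899030 (minus strand).
Mcm5: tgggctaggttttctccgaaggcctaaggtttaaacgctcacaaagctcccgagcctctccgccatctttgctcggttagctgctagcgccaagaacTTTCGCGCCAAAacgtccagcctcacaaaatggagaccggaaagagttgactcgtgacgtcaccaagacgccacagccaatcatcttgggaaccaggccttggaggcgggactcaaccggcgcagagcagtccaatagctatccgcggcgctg
Mcm6: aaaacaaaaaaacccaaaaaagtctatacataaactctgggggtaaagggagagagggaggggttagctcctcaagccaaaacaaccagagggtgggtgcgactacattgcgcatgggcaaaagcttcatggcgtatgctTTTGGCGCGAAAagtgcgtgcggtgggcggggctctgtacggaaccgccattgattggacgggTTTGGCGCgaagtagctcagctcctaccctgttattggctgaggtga
Mcm2: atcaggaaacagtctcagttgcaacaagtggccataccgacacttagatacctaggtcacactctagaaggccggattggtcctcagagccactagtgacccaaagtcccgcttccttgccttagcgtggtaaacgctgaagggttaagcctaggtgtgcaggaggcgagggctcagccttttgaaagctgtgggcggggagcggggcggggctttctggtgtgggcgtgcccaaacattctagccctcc
Mcm5 held 2 overlapping matches on opposite strands and Mcm6 held 3. Mcm2, shown for contrast as the subunit with the largest difference by its brightest probe set, held none of these letters in its window. In Mcm3, in 1 of 2 windows of Mcm7 and in Cdt1 the match lies shortly after the start, and 30 bases around it are shown, from chr1:20820263-20820292 (minus strand), chr5:138171849-138171878 (minus strand) and chr8:122568035-122568064 (plus strand).
Mcm3: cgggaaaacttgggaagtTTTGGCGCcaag
Mcm7: gggtgacgacgTTTCGCGCcaatttcggtt
Cdt1: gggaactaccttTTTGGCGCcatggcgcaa
Of the 9 members with a window in the table, 5 held a match. Over all 27025 genes with a window, 251 (0.929%) held one. No window was used for Mcm4, and those of Mcm10, Cdc6 and E2f1 held no match. The E2f1 window may not cover the gene's main promoter, so its lack of a match is not read. A match of letters is a description and not a bound site, and the letters' absence from a window says nothing about the factor.

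Beside these genes, the libraries differed in ways that touch the values. All 6 probe sets of Sox11, the deleted gene, were lower in the null library, at 16.4% to 47.8% of the wild-type signal, and the sources used here do not say which of them lie in the deleted part. For the beta-actin control, a measure of RNA integrity, the signal at the 3′ end over that at the 5′ end was 1.16 in the null and 1.78 in the wild-type library, and for Gapdh 0.816 in the null and 0.922 in the wild-type library. Xist, the RNA of the inactive X chromosome, had a signal of 155 in the null and 17505 in the wild-type library, so the embryos also differed in this sex-linked RNA. All 10 licensing genes are autosomal, but with 1 embryo per genotype the parts of sex and genotype in their values cannot be told apart. Both libraries held strong signals of tissues outside the brain. The sum over 8 epidermal genes was 23817 in the null and 44510 in the wild-type library, and 6 of the 8 were at least 1.5-fold lower. The sum over 8 skeletal muscle genes was 120060 and 118590 in the same order. Sums were also lower in the null library for 3 pituitary (2332 and 5584), 6 lens (16540 and 26867) and 4 salivary gland genes (31864 and 44429). For 6 cortical neuron genes the sums were 14981.1 in the null and 16123.5 in the wild-type library, and all 6 were within 1.5-fold. In the same order they were 12244 and 13229 for 5 cartilage and bone genes, and 2789 and 4021 for 2 erythroid genes. For 5 microglia and macrophage genes they were 6213 and 6000. The sum over 5 endothelial genes was 2986 in the null and 2059 in the wild-type library, and 3 of the 5 were at least 1.5-fold higher. Of all 12390 measured genes, as defined below, 3.07% were that much higher and 3.24% lower. A licensing signal can come from any dividing cell of such a mixture, and the part of these tissues in the licensing values was not tested. In bulk tissue, fewer dividing cells and less RNA per cell cannot be told apart.

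The members were read from weak to strong signals. A probe set counted as measured when its signal reached the array median over all non-control probe sets (177.4 in the null and 177.5 in the wild-type library) on at least 1 array. This held for 22 of the 29 probe sets and for 9 of the 10 genes, Cdc6 being the exception. Differences are in log2, null minus wild type, after a shift of the null array that sets the median over all 12390 measured genes to 0. A gene is given by its brightest probe set unless another is named.

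**Figure D1:**
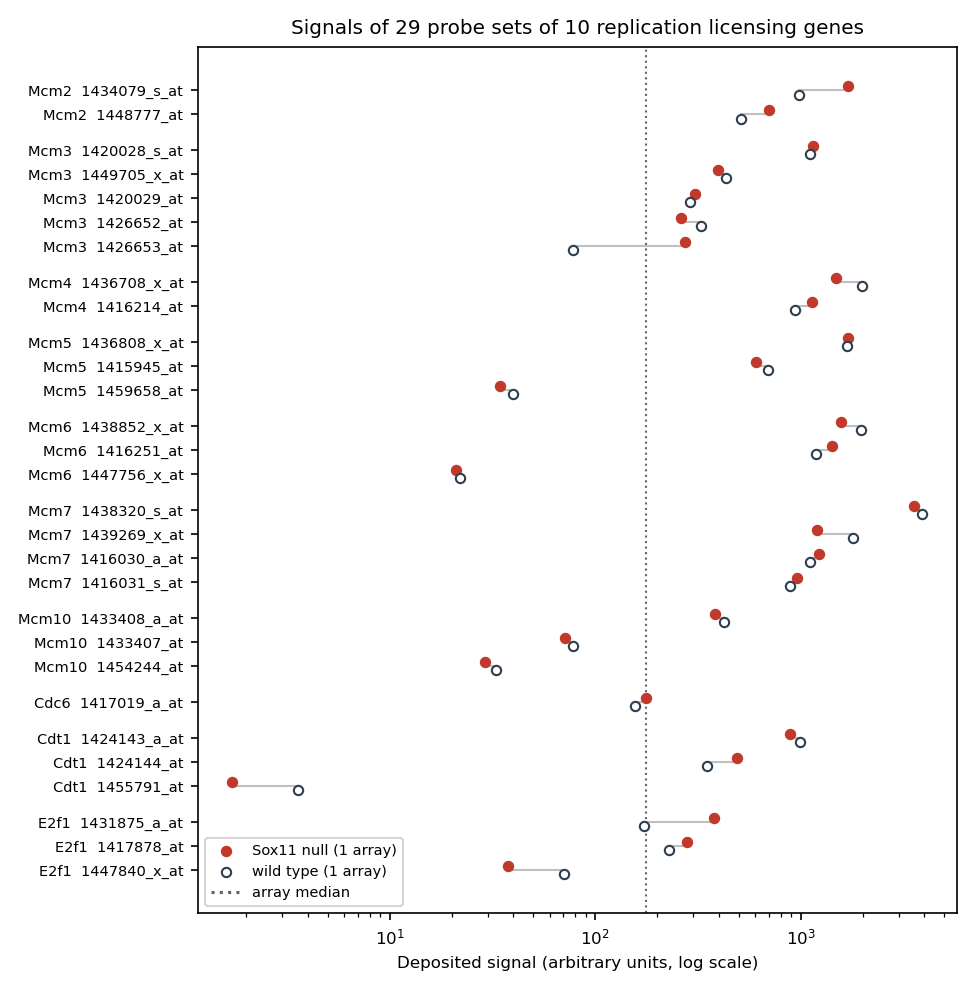
Deposited signal (horizontal, log scale) of each of the 29 probe sets, with the Sox11-null array as filled red points above the wild-type array as open points. Most lie near each other, and the largest gaps among probe sets that reach the array median (dotted line) belong to Mcm2, E2f1 and 1 probe set of Mcm3.

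Mcm2, whose product sits in the hexamer beside Mcm5 at the gate through which DNA enters, was the one subunit beyond 1.5-fold by its brightest probe set. Probe set 1434079_s_at gave 1700 in the null and 979 in the wild-type library, a log2 difference of 0.82 or 1.76-fold. The second probe set, 1448777_at, gave 700 in the null and 514 in the wild-type library, a log2 difference of 0.46, which is within 1.5-fold. Both therefore point the same way. Measured genes were put into 3 equal groups by level. Among the 4130 in the highest group, the central 95% of log2 differences ran from -0.46 to 0.45, and 10 genes (0.242%), Mcm2 included, were at least as high as Mcm2. Since the list was chosen with this value known, the position is a description.

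By brightest probe set, the other subunits were all within 1.5-fold. Mcm5 was nearly equal, at 1689 in the null and 1677 in the wild-type library with 1436808_x_at (log2 difference 0.030), and at 607 and 692 with 1415945_at (-0.17). Its promoter, like that of Mcm6, is shown above with overlapping matches. Mcm7, the subunit that pairs with Mcm4 in the catalytic part of the ring, was at 3556 in the null and 3912 in the wild-type library with its brightest probe set, 1438320_s_at (log2 difference -0.12). Over the 5 subunits other than Mcm2 the brightest probe sets ran from -0.40 to 0.069, with a median of -0.12. Over all 6 subunits 3 were above 0 and 3 below, the median was -0.044 and the range was 1.22.

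Mcm4 and Mcm6, both parts of the catalytic core with Mcm7, each gave opposite directions with their own probe sets. For Mcm4, 1436708_x_at gave 1489 in the null and 1996 in the wild-type library (log2 difference -0.40), whereas 1416214_at gave 1138 in the null and 934 in the wild-type library (0.31). For Mcm6, 1438852_x_at gave 1576 in the null and 1954 in the wild-type library (-0.29), and 1416251_at gave 1418 in the null and 1190 in the wild-type library (0.27). All 4 probe sets had strong signals on both arrays. Neither subunit can be given one direction from these arrays.

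Mcm7 was likewise split over its 4 probe sets. Probe set 1439269_x_at gave 1198 in the null and 1800 in the wild-type library (log2 difference -0.57), close to the 1.5-fold edge of 0.58 on the lower side. Probe set 1416030_a_at gave 1227 in the null and 1105 in the wild-type library (0.17), and 1416031_s_at gave 963 in the null and 888 in the wild-type library (0.14). With 1438320_s_at, 2 were above 0 and 2 below.

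Mcm3, the partner of Mcm5 in the ring, had the widest spread, through 1 of its 5 probe sets. Its brightest probe set, 1420028_s_at, gave 1150 in the null and 1111 in the wild-type library (log2 difference 0.069). Probe sets 1449705_x_at (397 in the null and 431 in the wild-type library, -0.097), 1420029_at (307 and 290 in the same order, 0.10) and 1426652_at (263 and 328, -0.30) were within 1.5-fold as well. The remaining one, 1426653_at, gave 272 in the null and 78.0 in the wild-type library, a log2 difference of 1.82 or 3.54-fold. It was the largest difference of any member probe set, and it counted as measured through the null array alone. The range over the 5 probe sets was 2.13 and was set by that one. The other 4 ran from -0.30 to 0.10, a range of 0.40, close to the median range of 0.41 over the 5155 measured genes with several measured probe sets.

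**Figure D2:**
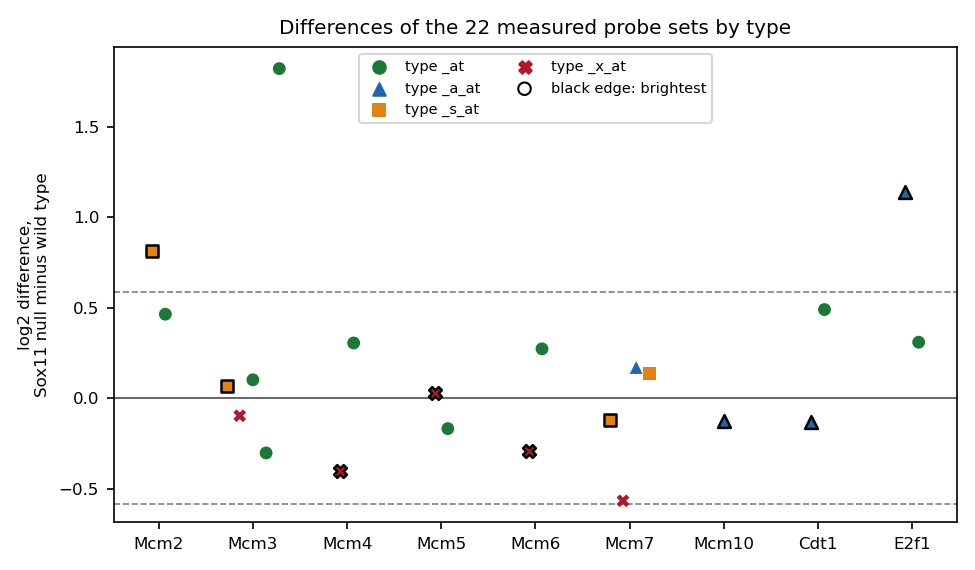
Log2 difference, Sox11 null minus wild type (vertical), of the 22 measured probe sets by gene, with symbols by probe-set type, a black edge on the brightest of each gene and dashed lines at 1.5-fold. Mcm4, Mcm6 and Mcm7 lie below 0 with their _x_at probe set and above 0 with at least 1 other, and both probe sets of Mcm2 and of E2f1 lie above 0.

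Whether the subunits moved together thus depends on which probe set stands for each. The SD of the log2 difference over the 6 subunits was 0.43 with the brightest probe sets and 0.30 with the mean of each subunit's measured probe sets. The SD between probe sets of one and the same subunit, pooled over the 17 measured probe sets of the hexamer, was 0.59, and 0.35 without Mcm3. Over all 5155 genes with several measured probe sets the pooled SD was 0.39. With the brightest probe sets, the spread between subunits thus lay between the spreads within a subunit with and without Mcm3. The SD of means is smaller by construction and is not set against that of single probe sets. These SDs come from probe sets read on the same pair of RNA samples and do not stand for replicate embryos.

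In Mcm4, Mcm6 and Mcm7 the _x_at probe set was the lowest, as _x_at probe sets were lower than plain _at ones by median across the array, whereas Mcm5 went the other way. In the Affymetrix naming scheme, a name ending in _x_at marks a set with probes that can cross-hybridise to other sequences, _s_at one whose probes match several transcripts, and _a_at one that matches several transcripts of a gene. Of the 5 measured _x_at probe sets of the members 4 were below 0, with a median of -0.29. Of the members' 9 plain _at probe sets, those of Cdt1 and E2f1 included, 7 were above 0, with a median of 0.31, and those below 0 were 1415945_at of Mcm5 and 1426652_at of Mcm3. Over all single-gene probe sets that were measured, 1380 of type _x_at had a median of -0.11 with 67.5% below 0, and 14849 of type _at had a median of 0.036 with 44.9% below 0.

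Within genes, the sets of type _x_at were also lower in most cases. For 934 genes with measured probe sets of type _x_at and of other types, the _x_at difference minus the mean of the others had a median of -0.16 (quartiles -0.39 and 0.049) and was below 0 in 69.8%. This gap was -0.71 for Mcm4, -0.63 for Mcm7 and -0.56 for Mcm6, below the lower quartile of all these genes, and 0.20 for Mcm5, above the upper one. For Mcm3 it was -0.52, but -0.053 without 1426653_at, the probe set measured through the null array alone. The sources used here do not say where the probes lie on each transcript, so the part of probe position and of the 3′ to 5′ ratios above in these gaps was not tested.

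**Figure D3:**
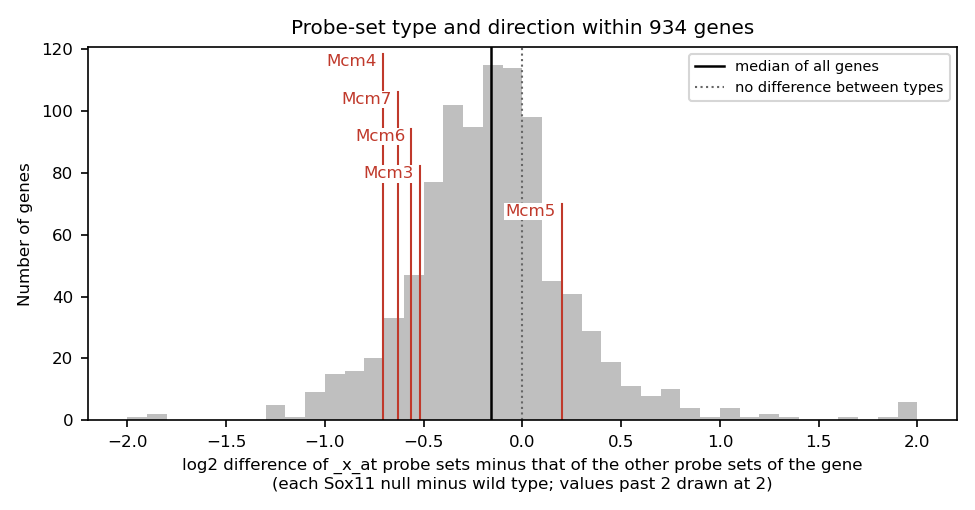
Histogram over 934 genes of the log2 difference of their _x_at probe sets minus that of their other measured probe sets, each null minus wild type, with red lines for the 5 hexamer genes that have both. The median of all genes (black line) is -0.16, Mcm4, Mcm7 and Mcm6 lie between -0.71 and -0.56, Mcm3 lies at -0.52 (-0.053 without 1426653_at), and Mcm5 lies at 0.20.

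The licensing factors outside the ring were within 1.5-fold with each measured probe set. Mcm10, which is needed for the helicase to start unwinding, was at 382 in the null and 423 in the wild-type library with 1433408_a_at (log2 difference -0.13). Its other probe sets were under the array median on both arrays, 1433407_at at 71.2 in the null and 78.4 in the wild-type library and 1454244_at at 29.1 and 32.7 in the same order. Cdt1, the loader that geminin inhibits after licensing, was at 890 in the null and 989 in the wild-type library with 1424143_a_at (-0.13). With 1424144_at it was at 487 in the null and 352 in the wild-type library (0.49), so its 2 measured probe sets also disagreed in direction. Cdc6, the ATPase that recruits Cdt1 and the hexamer to origins, was at 177.2 in the null and 155.4 in the wild-type library with its only probe set, 1417019_a_at. Both signals were under the array medians of 177.4 and 177.5, the null one barely so, and Cdc6 enters no count. Its log2 difference was 0.21.

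E2f1 had the largest difference among the members by brightest probe set. With 1431875_a_at it was at 377 in the null and 173 in the wild-type library, a log2 difference of 1.14 or 2.21-fold. The wild-type signal lay under the array median, so this probe set counted as measured through the null array alone. The second probe set, 1417878_at, had almost the same mean level and gave 279 in the null and 228 in the wild-type library (0.31). The remaining one, 1447840_x_at, was dim and went the other way, at 37.6 in the null and 70.7 in the wild-type library, with the null signal under the 25th percentile of its array. In the lowest of the 3 groups by level the central 95% ran from -0.94 to 0.82, and 45 of 4130 genes (1.09%), E2f1 included, were at least as high. As for Mcm2, the list was chosen with this value known, and the position is a description. The size of the E2f1 difference thus rests on 1 of its 3 probe sets.

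Counted by brightest probe set, 2 of the 9 measured members (Mcm2 and E2f1) were at least 1.5-fold higher in the null library and none was lower, where 3.07% of all 12390 measured genes were that much higher and 3.24% lower. The list was chosen with these values known, and E2f1 passed through its higher array alone, so nothing is read from that count. The median over the 9 was -0.12, against 0 over all measured genes, which the centring sets. Counted by probe set, 3 of 22 were at least 1.5-fold higher and none lower, where 7.26% of the 20669 measured single-gene probe sets were higher and 3.48% lower. At 2-fold, E2f1 was the single member higher by brightest probe set, where 0.573% of all measured genes were. Of these 22 probe sets, 20 reached the median on both arrays. Among the 20, the _s_at probe set of Mcm2 alone was beyond 1.5-fold, 11 were above 0 and 9 below, and the median was 0.050.

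**Figure D4:**
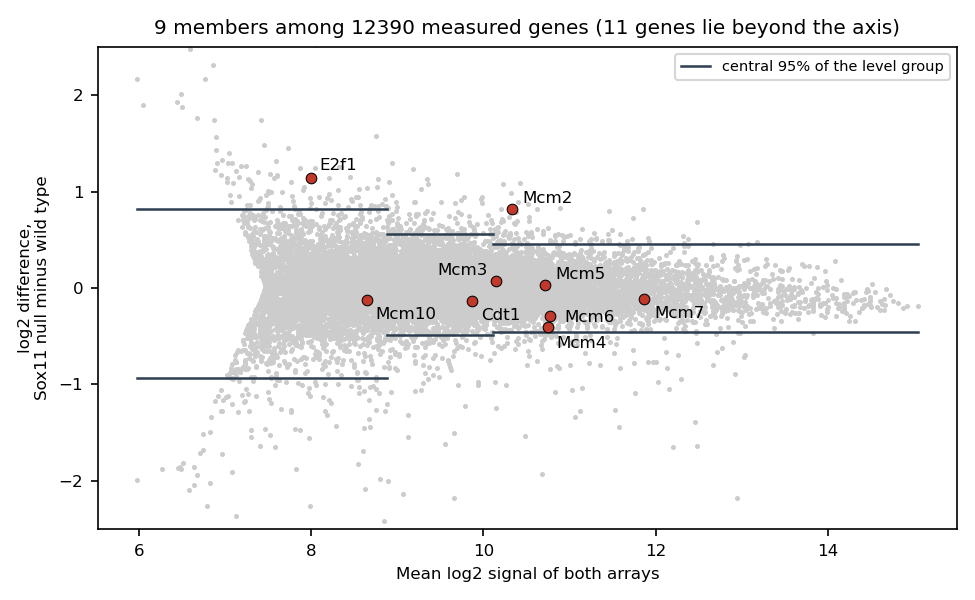
Log2 difference, Sox11 null minus wild type (vertical), against mean log2 signal of both arrays (horizontal) for 12390 measured genes in grey, with the 9 measured members in red, and lines at the central 95% of each of 3 equal groups of genes by level. E2f1 and Mcm2 lie above the lines and the other 7 members between them.

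By brightest probe set, most of the other replication genes lay close to 0. Over 10 further lists of replication and cell cycle genes, 105 of 108 measured genes were within 1.5-fold, 2 were higher and 1 was lower, 54 were above 0 and 54 below. Of all measured genes, 6.3% were beyond 1.5-fold either way. Other measured probe sets of some listed genes did lie beyond 1.5-fold. Most of these genes lay on the higher side: Pole3 at 1.13, Hmmr at 1.10, Skp2 at 1.03 and Dck at 0.83. Gins2 (0.72), Top2a (0.62), Rrm2 (0.62), Rfc1 (0.60) and Dtl (0.60) were higher as well. Ccnd2 alone lay on the lower side, at -0.62. Over all measured single-gene probe sets, 7.26% were at least 1.5-fold higher and 3.48% lower. The other probe sets of the listed genes were not counted against these shares. Of the origin recognition complex, the platform on which the hexamer is loaded, 5 of 6 genes were within 1.5-fold and Orc1, its ATPase subunit, was lower, at 146 in the null and 240 in the wild-type library (log2 difference -0.70), measured through the wild-type array alone. All 10 measured genes of licensing control were within 1.5-fold, with a median of 0.032. Ddb1 and Cul4a, parts of the ubiquitin ligase that removes Cdt1 in S phase, were at -0.023 and 0.036, and geminin (Gmnn), the inhibitor of Cdt1, was at 734 in the null and 737 in the wild-type library. Mcm9, a relative of the hexamer genes that acts in recombination repair, was at 164 in the null and 238 in the wild-type library (-0.52). Like Orc1, it was measured through the wild-type array alone.

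Of 10 measured genes that turn the loaded ring into the active helicase, 9 were within 1.5-fold and the median was -0.0044. Wdhd1, which ties the helicase to the DNA polymerase that primes synthesis, was just beyond it, at 582 in the null and 391 in the wild-type library (0.60). The GINS subunit gene Gins4 was at 672 in the null and 1009 in the wild-type library (-0.57), within 1.5-fold, while Gins1, Gins2 and Gins3 were at 0.022, -0.085 and 0.14. With its other measured probe set Gins2 was at 0.72, beyond 1.5-fold higher. At the fork itself, all 21 measured genes of polymerases, clamp and ligase were within 1.5-fold, with a median of -0.014. Pcna, the sliding clamp, was at 5732 in the null and 5687 in the wild-type library (0.031), and Rpa1, which coats single-stranded DNA, was at -0.099.

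The 9 genes of fork protection and checkpoint were within 1.5-fold (median 0.085), with Rad17 at 0.085 and Tipin at 0.14. In nucleotide supply, thymidine kinase (Tk1) was higher, at 605 in the null and 380 in the wild-type library (0.69). By brightest probe set, the other 4 measured genes were below 0 and within 1.5-fold, and the median was -0.19. With their other measured probe sets, Dck ran from 0.81 to 0.83, Rrm2 from 0.065 to 0.62 and Rrm1 was at 0.35. Dut stayed below 0, at -0.40. The direction of this list thus depended on the probe set. All 12 measured relatives and partners of E2f1 were within 1.5-fold (median -0.020), with the retinoblastoma gene Rb1 at -0.12 and the E2F partner gene Tfdp1 at 0.10. The activator genes E2f2 and E2f3 were at 0.17 and 0.11. G1/S cyclins and kinases had a median of 0.044 over 10 genes, with Ccnd2 at 0.18 and Ccnd1 at -0.24, and the other 4 measured probe sets of Ccnd2 were all below 0. Inhibitors of cyclin-dependent kinases had a median of 0.0040 over 5 genes, with Cdkn1c at 0.30 and Cdkn1a at -0.0040.

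Genes of the G2 and M phases had a median of 0.00071 over 20 measured genes, all within 1.5-fold by brightest probe set. The proliferation marker Mki67 was at 2242 in the null and 2351 in the wild-type library, and Top2a was at 0.31 (0.62 with its other probe set). Among the 9 radial glia markers, 1 was lower beyond 1.5-fold and 8 were within it. The lower one was Hes5, a target of Notch signalling, at 358 in the null and 640 in the wild-type library (-0.82, and -0.23 with its other probe set). Their signals summed to 34405 in the null and 34924 in the wild-type library, and without the brightest genes, Vim and Fabp7, to 7452 and 7974 in the same order. All 5 measured intermediate progenitor markers were within 1.5-fold by brightest probe set. Eomes, their defining transcription factor, lay at the edge with 525 in the null and 355 in the wild-type library (0.58), and its other measured probe set gave 1.25. Neurog2, a proneural factor, was at 0.37, and Insm1 was at 0.093 (-0.12 with its other measured probe set). Btg2 and Elavl2 were below 0, at -0.33 and -0.18. The other measured probe set of Btg2 gave -0.69, beyond 1.5-fold lower, and those of Elavl2 ran from -0.36 to 0.50. The sum over these 5 was 6284 in the null and 6797 in the wild-type library, but without Elavl2, the brightest, it was 2153 in the null and 2053 in the wild-type library. The part of progenitor number in the licensing values was not tested. Neurog1, also on the intermediate progenitor list, was not measured and is left out.

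**Figure D5:**
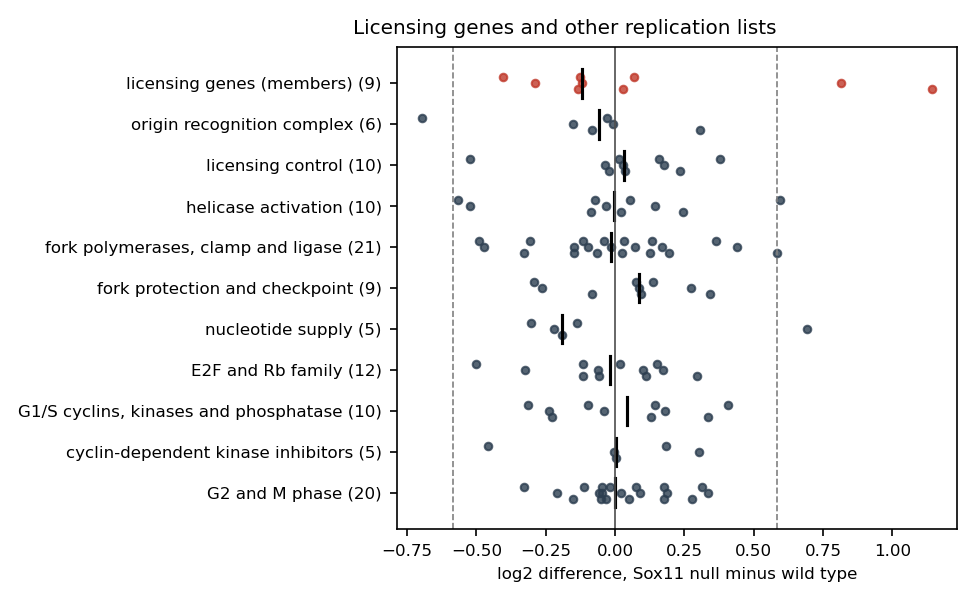
Log2 difference, Sox11 null minus wild type (horizontal), of each measured gene by its brightest probe set, for the 9 licensing genes in red and 10 other lists in blue with the number of measured genes in parentheses, a black bar at each median and dashed lines at 1.5-fold. The licensing medians and those of the other lists lie between -0.19 and 0.085, and Mcm2 and E2f1 lie furthest to the right.

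Genes that share the E2F letters printed above did not lean to one side. Of 168 measured genes other than the members with a match in a promoter window, 84 were above 0, 4 were at least 1.5-fold higher and 5 at least 1.5-fold lower. Their median was 0.0023 (quartiles -0.18 and 0.15), and that of 9795 measured genes with a window and no match was 0.00045 (quartiles -0.16 and 0.18). The centring holds the median of all measured genes at 0, and whether E2F activity differed was not tested. The members lie apart on the genome, and their nearest protein-coding neighbours in RefSeq were read as well. Mcm4 lies next to Prkdc, which encodes a DNA repair kinase, and Prkdc was at 352 in the null and 278 in the wild-type library (0.36). Ap4m1, next to Mcm7, was at 311 in the null and 354 in the wild-type library (-0.17). Hmox1, a heme-degrading enzyme gene next to Mcm5, was at 288 in the null and 196 in the wild-type library (0.579), just within 1.5-fold. Of the 13 measured neighbours 1 was beyond 1.5-fold, where 6.3% of all measured genes were. This was the Mcm10 neighbour Ucma, a cartilage gene, at 129 in the null and 204 in the wild-type library (-0.64), measured through the wild-type array alone.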

How the data were processed

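The deposited table holds 1 linear signal intensity per probe set and array, made by the authors with Affymetrix Expression Console, per the submitters' processing notes. How probes were summarised, with which version and filters, is not stated in the sources used here. Of 45101 probe sets, 64 controls were left out, 34945 are annotated to 1 gene, 932 to several, and 9160 are unnamed here. For 34741, the symbol was updated through a RefSeq gene table of GRCm38.p6. From the deposited intensities, log2 values were computed, the median difference over measured genes of -0.020 was taken off the null array, and values under the 25th percentile of their array (52.5 in the null and 52.9 in the wild-type library) were raised to it. The probe set with the highest mean stands for its gene. With 1 array per genotype no test was made. Sizes were counted at 1.5-fold and, as an alternative, 2-fold. The members, lists and rules were chosen with earlier results of these data known. From each list, genes beyond 1.5-fold were named (at most 3 each way), otherwise the 2 brightest, and every probe set of every member. Genes named beyond that rule were chosen after their values were seen. These were Gmnn, Mcm9, the GINS genes, E2f2, E2f3, the intermediate progenitor markers, the neighbours and genes named for their other probe sets. The calculation was tested on simulated data. Python 3.11.15, numpy 2.4.6, pandas 2.3.3 and statsmodels 0.14.6 were used.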

Additional observations from a re-analysis of the deposited data

How the results depend on the processing

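No paired analysis was possible because each genotype has 1 array. With the mean over all of each gene's probe sets, also those not measured, the members beyond 1.5-fold were 1 (Mcm2) and the range over the hexamer was 0.73. E2f1 was then at 0.35, through its dim 1447840_x_at, and the mean of its 2 measured probe sets was 0.725. Without _s_at and _x_at probe sets the count was 1 (E2f1), the hexamer median was 0.21 and its range 0.63, Mcm2 was at 0.45, and 5 of 6 subunits were above 0. The count was also 1 with the filter at the 75th percentile, where E2f1 and Mcm10 were no longer measured, and with the 2-fold threshold. Of the alternatives added after seeing the data, leaving out _x_at probe sets alone gave a hexamer median of 0.16 with 4 of 6 subunits above 0, and the second-brightest measured probe sets gave a count of 0 with E2f1 at 0.31. The values of Mcm3 without 1426653_at and the marker sums without their brightest genes, given in the report, were likewise added after seeing the data. The cause was not tested beyond this choice of probe sets. No centring, quantile normalization, loess removal, no floor, the floor at the median and no filter kept the count at 2 (Mcm2 and E2f1), the hexamer median between -0.064 and -0.042, and every subunit's direction. Values were taken as moved when they differed by more than the pooled probe-set SD of 0.39, scaled to the number of genes for medians. Of 76 values of other single members 8 moved, and of 110 medians of the other lists 3 moved, 2 of nucleotide supply (0.15 and 0.35) and 1 of G1/S cyclins (0.23). Cdc6, under the array median on both arrays, could be counted with no filter alone.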
